A study of Mus musculus with 4 samples.

Results

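Mice carry a pair of insulin genes, Ins1 and Ins2, and both members were taken as the rows of these names, 2 of the 38457 mouse genes in the count tables. The study profiled pancreatic islets of WT and Sin3A mutant mice by inDrop, in which single cells are captured in droplets and transcripts are counted by tags at their 3′ ends. Each label has 2 libraries, which the series calls biological replicates, and every title carries 1 of 2 numbers, each used once per label. The letters A (the lower number) and B (the higher) stand for them here, and runs of 4 values give the A libraries first and, within each letter, WT before mutant. The age of the mice, the Sin3A allele, any Cre driver, whether animals were pooled and the meaning of the number are not given in the sources. Total counts ranged from 9282495 to 12835199 per library, and 6526 cells were kept, with median counts per cell from 4448.5 to 9997.

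Insulin is the hormone of the pancreatic beta cell that lowers blood glucose. Its messenger RNA is translated into preproinsulin, which enters the endoplasmic reticulum, loses its signal peptide, folds, and is cut by prohormone convertases into insulin and C-peptide within secretory granules. Ins2 is the counterpart of the single insulin gene of most mammals, and Ins1 arose in rodents from a copy of an Ins2 transcript that was inserted elsewhere in the genome. Beta cells of mice transcribe both, and transcription factors such as Pdx1, Neurod1, Mafa and Nkx6-1 act on their promoters.

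Ins1 (ENSMUSG00000035804) spans bases 52264297 to 52265476 of chromosome 19 (plus strand, GENCODE M21 annotation of GRCm38). Its transcript has 2 exons, with the whole coding sequence in exon 2. RefSeq ends the gene earlier, at 52265015. Ins2 (ENSMUSG00000000215) spans bases 142678656 to 142743381 of chromosome 7 (minus strand), a stretch that includes long transcripts beginning upstream, 9 transcripts in all. The transcript that matches the RefSeq gene (142678656 to 142679726) has 3 exons, with coding sequence in exons 2 and 3.

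Since tags come from the 3′ end, the final 60 coding bases are shown to compare the genes toward that end, with capitals for the bases that differ. Whether the counted tags cover these bases is not known here. They lie at chr19:52264891-52264950 (plus strand, exon 2) and chr7:142678713-142678772 (minus strand, exon 3) on GRCm38.
Ins1: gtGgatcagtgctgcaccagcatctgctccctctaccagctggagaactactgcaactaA
Ins2: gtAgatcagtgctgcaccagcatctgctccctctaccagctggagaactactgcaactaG
The ends differed at 2 of 60 bases, and over the aligned coding sequences 303 of 333 positions (91.0%) were identical. The longest identical run was 56 bases. Of the 271 stretches of 30 bases in the last 300 bases of Ins1, counted back from its RefSeq end, 50 (18.5%) also occur in an Ins2 transcript. The GENCODE transcript of Ins1 runs further, and 0 of the 271 stretches in its last 300 bases do. Which end the counted tags came from is not known here. The sources also do not say how reads that match both genes were counted, so the split of counts between Ins1 and Ins2 may be less certain than their sum.

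The promoter table from RefSeq (GRCm38.p6) matched 1 of the 2 members, Ins1. The 250 bases before its start, chr19:52264047-52264296 on the plus strand, are shown because members of the regulator list below bind motifs of these kinds, with capitals for TAAT (or ATTA on the other strand), the core bound by homeodomain factors such as Pdx1 and Nkx6-1, and for CATCTG (or CAGATG), an E box of the kind bound by Neurod1 with Tcf3.
Ins1 promoter: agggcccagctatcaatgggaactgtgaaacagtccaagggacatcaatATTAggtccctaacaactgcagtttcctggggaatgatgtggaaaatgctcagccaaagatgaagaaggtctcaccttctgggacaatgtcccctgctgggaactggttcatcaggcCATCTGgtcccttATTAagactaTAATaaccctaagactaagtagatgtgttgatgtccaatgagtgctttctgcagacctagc
The TAAT core began 201, 71 and 61 bases before the start and the E box 84 bases before it, and no matches overlapped. Of 32851 windows of the same length in the table, 54.9% held TAAT at least once, 17.3% at least 3 times, and 14.4% held CATCTG. These are matches of letters, not measured binding.

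Cell classes were built without the 2 insulin genes, so that their levels did not decide which cells were called beta-like. The 2596 beta-like cells (546, 611, 696 and 743 per library) carried all 15 measured markers of the beta list in every library, at a summed 31810 to 46811 CPM (counts scaled to a total of 1000000 in the summed cells of a class). Alpha markers summed to 2300 to 4498 CPM there, pancreatic polypeptide cell markers to 1156 to 5782, delta markers to 533.5 to 882.7 and acinar markers to 18.8 to 48.3, with 1 acinar gene, Amy2a2, at 0. Of these cells 28, 25, 26 and 32 had a barcode name that occurs in more than 1 library. Without those cells the insulin share of counts, given below for all cells, was 15.1%, 28.4%, 8.57% and 4.51%. Beta-like cells lay in 4 clusters that were nearly 1 per library. The 91 cells of mutant A in the cluster led by WT A had an insulin share of 27.8%, beside 28.7% in mutant A's own cluster and 15.2% in the WT A cells they clustered with. Those 91 cells were shallow, with median counts of 3017 beside 10853 and 13863, so these shares are not at like depth. The 36 cells of mutant B in the cluster led by WT B had 4.62%, beside 4.46% in mutant B's own cluster and 8.62% in the WT B cells. Their median counts were 6889.5, beside 6918 and 6540. Sin3a, the targeted gene, stood at 25.3, 50.2, 40.9 and 18.5 CPM in beta-like cells (log2 difference 0.11 ± 0.61, adjusted p = 1.0 by edgeR), higher in the labelled mutant within A and lower within B. Which exons the mutation affects is not stated in the labels, so 3′ tags may be counted from a mutant transcript, and groups below are those of the labels.

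In beta-like cells Ins1 stood at 81267, 170451, 39600 and 19300 CPM. Ins2 stood at 69768, 114173, 46020 and 26115 CPM. Both genes were highest in mutant A and lowest in mutant B, with the WT libraries between them, so the labelled groups overlapped. The order mutant A, WT A, WT B, mutant B held for each gene, and the 95% Poisson intervals of neighbouring libraries, which cover counting error only, did not overlap. By rank among all genes Ins1 was 1, 1, 2 and 4 and Ins2 was 2, 2, 1 and 2.

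The mutant against WT comparison asks whether insulin transcripts differed with the genotype label, and for these genes no such difference was resolved. Ins1 differed by 0.63 ± 1.09 (log2, SE) and Ins2 by 0.28 ± 0.99, both with an adjusted p of 1.0 (edgeR's quasi-likelihood test, Benjamini-Hochberg over all genes, n = 2 libraries per label). No gene passed, 0 of 15986 tested (0%), while 19 had an unadjusted p under 0.05 and DESeq2 also called 0. In counts simulated for this comparison, 0 of 100 genes changed 2-fold and 0 of 100 changed 4-fold passed. The lack of calls therefore cannot tell changes of that size from none. Ins1 and Ins2 were both higher in the library labelled mutant within A and lower within B. Leaving out mutant A turned the differences to -1.58 and -1.06, and leaving out mutant B raised them to 1.43 and 0.93, none past the threshold. Ins2 also turned, to -0.14, without WT B.

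Summed, both genes made up 15.1%, 28.5%, 8.56% and 4.54% of the counts of beta-like cells. For the label WT the share averaged 11.8% ± 4.63 (SD, n = 2), and for the label mutant 16.5% ± 16.9. The difference of 4.67 percentage points gave p = 1.0 (two-sided exact permutation test, adjusted p = 1.0 over 5 such single-value tests), in a design whose smallest p is 0.333. Within A the share was 13.4 percentage points higher in the labelled mutant, and within B the difference was -4.02. Leaving out mutant A turned the difference between the labels to -7.29, while leaving out mutant B raised it to 16.6.

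**Figure D1:**
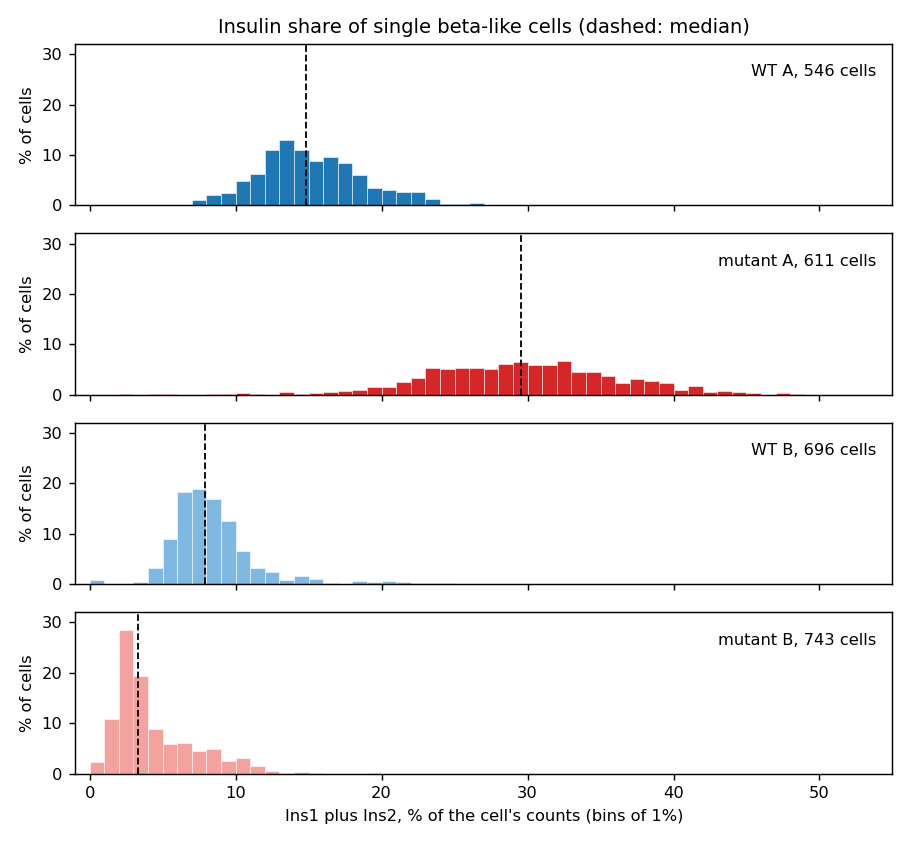
Share of single beta-like cells (vertical axes, % of cells) by their insulin share of counts in bins of 1% (horizontal axis), 1 panel per library, with the median dashed. Medians were 14.8%, 29.5%, 7.90% and 3.29%, and mutant B has a long right tail.

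The single cells showed that the differences between libraries ran through most cells, as in the histograms of insulin share per cell. In mutant B a tail of richer cells carried part of the level, with 4.54% over the summed cells beside 3.29% in the median cell. The median beta-like cell held 14.8%, 29.5%, 7.90% and 3.29% insulin counts. Of the 611 beta-like cells of mutant A, 598 (97.9%) lay above the median of WT A, and of the 743 cells of mutant B, 102 (13.7%) lay above the median of WT B. The spread within a library, as the coefficient of variation of the share, was 0.251, 0.226, 0.384 and 0.647. The 95th percentile was 2.26, 2.10, 2.92 and 7.49 times the 5th. Mutant B was the most uneven of the 4 libraries, with a quartile range from 2.48% to 5.91% and cells up to 19.4%.

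The balance between the genes differed between libraries as well. Ins1 gave 53.8%, 59.9%, 46.3% and 42.5% of the insulin counts of beta-like cells, log2 ratios of Ins1 to Ins2 of 0.22, 0.58, -0.22 and -0.44. Ins1 thus exceeded Ins2 in both A libraries and fell below it in both B libraries, in the same order as the insulin share. The mean log2 ratio was 0.00 ± 0.31 (SD, n = 2) for the label WT and 0.07 ± 0.72 for mutant, a difference of 0.07 (two-sided exact permutation test p = 1.0). It was 0.36 within A and -0.22 within B, and it turned to -0.44 without mutant A and to -0.15 without WT B.

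The balance was also described over single beta-like cells. The SD of Ins1's part of insulin over cells was 5.03, 4.66, 6.48 and 7.74 percentage points, where binomial sampling, if every count were an independent molecule, gives 1.28, 1.41, 2.47 and 3.65. Whether molecular barcodes were collapsed is not stated, so the gap between these SDs is not read as variation between cells. In 63.1%, 61.5%, 47.5% and 43.2% of cells with at least 20 insulin counts, the exact 95% binomial interval, for counting error only, left out the library's pooled value. Ins1 outnumbered Ins2 in 80.2% and 98.7% of such cells in the A libraries and in 29.4% and 25.5% in the B libraries. Within a library both genes nonetheless rose and fell together: the Spearman correlation of their shares over cells was 0.731, 0.701, 0.665 and 0.876, a description in which the genes share each cell's depth.

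Within every library the beta-like cells richest in insulin held relatively more Ins2. Cells were ranked by insulin counts per other count and split into 4 equal bins. Since the ranking used the counts of both genes, the gene that varies more over cells tends to rise more across these bins. The coefficient of variation of the share over cells was 0.301, 0.260, 0.453 and 0.730 for Ins2. For Ins1 it was 0.242, 0.233, 0.347 and 0.564. From the lowest to the highest bin Ins2's share of counts was 1.92, 1.70, 2.47 and 5.47 times higher and Ins1's 1.72, 1.66, 2.04 and 3.69 times. Ins1's part of insulin went from 54.6% to 52.0% in WT A, from 60.2% to 59.5% in mutant A, from 48.4% to 43.7% in WT B and from 48.7% to 39.0% in mutant B. It was lower in the highest bin than in the lowest in 4 of 4 libraries, though in WT A it peaked in bin 2, at 55.2%. Between libraries the direction was the other way, since the libraries with more insulin had a larger part of Ins1. In mutant B the lowest bin of cells held 1.84% insulin and the highest 8.46%.

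**Figure D2:**
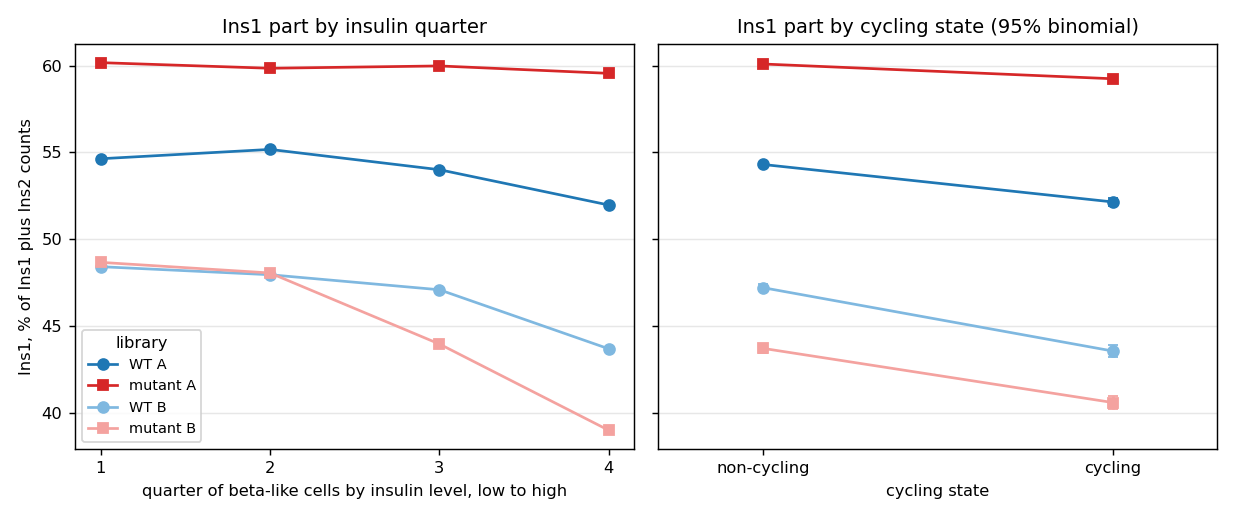
Ins1 as % of Ins1 plus Ins2 counts (vertical axis) by bin of beta-like cells ranked by insulin level (left) and in non-cycling and cycling beta-like cells (right, bars are 95% exact binomial intervals, mostly smaller than the points), 1 line per library. Every line ends lower than it begins, from 48.7% to 39.0% in mutant B at the left.

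Other genes of the insulin pathway were set beside these bins, as log2 ratios of the highest to the lowest bin per count outside insulin. Among 8367 genes measured in all 4 libraries, 6.29% were higher and 9.91% lower in the insulin-rich bin in every library. Of 22 genes for proinsulin maturation 3 were higher in all 4 (Pdia3, Sec61b and Ssr4, which serve protein folding and entry into the endoplasmic reticulum) and 0 lower. Of 18 genes of granule storage and secretion 4 were higher (Iapp, Rab27a, Scg3 and Syt7) and 1 lower (Chgb). Of 15 regulators of the insulin genes 0 were higher and 2 lower (Foxa2 and Insm1). These 10 genes are named because the counts are small, and whether the lists differ from the all-gene shares was not tested. The list medians were mixed in sign. They were 0.06, -0.002, 0.10 and -0.05 for maturation and 0.08, 0.07, 0.03 and -0.04 for granule genes. For the regulators they were 0.08, 0.01, -0.13 and -0.11. Iapp, the gene of amylin, which beta cells secrete with insulin, was higher by 0.09, 0.10, 0.28 and 0.74, most in mutant B.

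Depth was set against the insulin share next, since a cell with fewer other transcripts has a larger insulin share by arithmetic. Cells were split into 4 equal bins by counts outside insulin, and from the lowest to the highest bin the share went from 16.5% to 14.2% in WT A, from 33.7% to 25.4% in mutant A, from 8.79% to 8.25% in WT B and from 3.86% to 4.79% in mutant B. The share was thus lower in deep cells in 3 of 4 libraries and higher in mutant B. The mean difference was -2.57 ± 4.07 percentage points (SD, n = 4; two-sided exact sign-flip permutation test p = 0.375, adjusted p = 0.938 over 5, smallest possible p 0.125). Insulin counts themselves rose with the other counts of a cell, with Spearman correlations of 0.758, 0.880, 0.790 and 0.608 over cells. The median counts outside insulin were 17121 in the deepest bin of WT A and 10195 in that of WT B. In each of the 4 bins the libraries stood in the same order, with no overlap between the shares of any 2 libraries across bins. The part of depth in the difference between libraries was not tested.

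**Figure D3:**
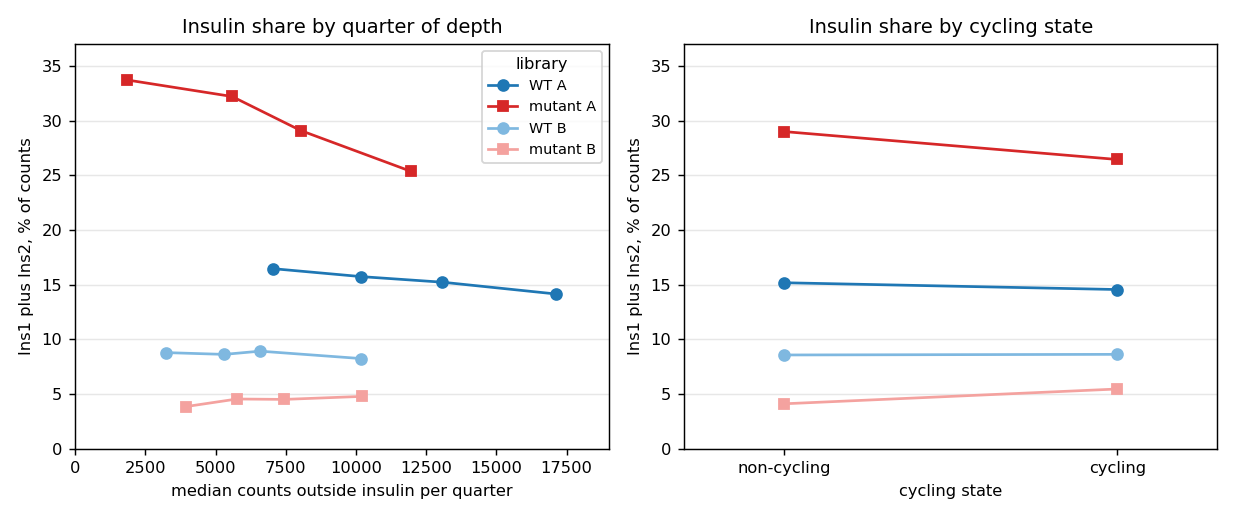
Insulin share of counts (vertical axes, %) against the median counts outside insulin of each bin of beta-like cells (left) and by cycling state (right), 1 line per library. In mutant A the share runs from 33.7% in the shallowest to 25.4% in the deepest bin, and in no bin do the libraries change places.

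Beta cells of young mice can divide, so cycling cells were compared with the rest of the class. After thinning the counts outside insulin to 2000 per cell, 106, 98, 118 and 156 beta-like cells held at least 2 counts of 12 proliferation markers and were called cycling. A further 372, 336, 463 and 467 held none. Cells with 1 count (59, 90, 84 and 104) and those under 2000 counts (9, 87, 31 and 16) were left out, and 14, 13, 23 and 28 of the cycling cells lay at the threshold of 2 counts.

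Ins1 and Ins2 were not resolved as different between these states. Ins1 stood at 75913, 156639, 37613 and 22191 CPM in cycling and 82424, 174227, 40490 and 17980 in non-cycling cells. It was lower in cycling cells in 3 of 4 libraries and higher in mutant B. Ins2 stood at 69650, 107781, 48708 and 32453 CPM in cycling and 69353, 115729, 45262 and 23141 in non-cycling cells, higher in 3 of 4 and lower in mutant A. The log2 difference was -0.05 ± 0.06 (SE) for Ins1, adjusted p = 0.644, and 0.09 ± 0.07 for Ins2, adjusted p = 0.388 (edgeR's quasi-likelihood test with the library as block, 4 pairs). By contrast 2280 of 13531 genes (16.9%) passed, 1274 (9.42%) higher and 1006 (7.43%) lower in cycling cells. Without mutant B, Ins1 was lower in cycling cells by a log2 difference of -0.16, which passed (adjusted p = 0.0161), and Ins2 was at -0.04. Without mutant A, Ins1 was at 0.01.

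Together both genes gave 14.6%, 26.4%, 8.63% and 5.46% of the counts of cycling cells and 15.2%, 28.9955%, 8.58% and 4.11% of those of non-cycling cells. Both A libraries were lower and both B libraries higher in cycling cells, and the mean difference was -0.44 ± 1.63 percentage points (SD, n = 4, two-sided exact sign-flip permutation p = 0.75, adjusted p = 1.0 over 5). Without mutant A the mean turned to 0.26. In WT B the summed shares lay close together. Its median cycling cell was lower, at 7.61% against 7.91% in non-cycling cells. Median counts outside insulin were 11469, 7907.5, 7030 and 7679.5 in cycling and 11730, 7397.5, 6016 and 6539 in non-cycling cells. In mutant B cycling cells were above non-cycling ones in 4 of 4 bins of depth, by 0.67 to 2.16 percentage points, and in mutant A below them in 4 of 4, by -1.01 to -2.43. In both WT libraries the direction changed between bins. From the shallowest to the deepest bin the difference was 0.63, 1.01, -1.998 and -0.99 in WT A. In WT B it was 1.48, 0.47, -1.38 and 0.41. Cycling cells made up 34.6% of the insulin-richest bin of mutant B but 16.8%, 14.3% and 18.3% in WT A, mutant A and WT B, among cells deep enough to be called. In the insulin-poorest bin they made up 29.9%, 30.4%, 24.5% and 17.7%.

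Ins1's part of the insulin counts was lower in cycling cells in all 4 libraries. It was 52.2% against 54.3% in WT A and 59.2% against 60.1% in mutant A. In the B libraries it was 43.6% against 47.2% and 40.6% against 43.7%. The exact 95% binomial intervals, which cover counting error only, did not overlap in any library. Ins1's part varied more over single beta-like cells than binomial sampling gives, in every library. The lack of overlap therefore does not test the difference within a library. As a log2 ratio the difference was -0.12, -0.05, -0.21 and -0.18, a mean of -0.14 ± 0.07 (SD, n = 4). With 4 pairs the exact sign-flip permutation test cannot go below 0.125, the p it gave (two-sided, adjusted p = 0.625 over 5). All 7 alternative settings of this comparison kept the direction, with means from -0.15 to -0.12.

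Some of the genes that carry proinsulin through the cell fell in cycling beta-like cells. Of 22 tested genes for proinsulin maturation 10 fell, 0 rose and 12 did not pass, where 7.43% of all genes fell. Their median log2 difference was -0.20, beside -0.03 over all genes. Pcsk2, a prohormone convertase, stood at 2287, 2577, 2387 and 2031 CPM in cycling and 2871, 2517, 2893 and 2564 in non-cycling cells, lower in 3 of 4 libraries (log2 -0.26 ± 0.06, adjusted p = 0.0029). Cpe, the carboxypeptidase that trims the cut hormone, fell in 4 of 4, from 2210, 2018, 4962 and 4109 to 1875, 1771, 4241 and 3671 CPM (-0.23 ± 0.05, adjusted p = 0.00288). Hspa5, the main chaperone of the endoplasmic reticulum, was at 2812, 2268, 4392 and 3352 CPM against 3365, 2160, 4109 and 4483, and did not pass (-0.16 ± 0.07, adjusted p = 0.112).

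Granule genes fell as well, 9 of 18, while 1 rose, Vgf, a granin-like protein, named because it is the only one. Their median was -0.20, where over all genes 7.43% fell, 9.42% rose and the median was -0.03. Chga, a granin that packs secretory granules, fell in 4 of 4 libraries, from 4826, 4271, 7844 and 7861 to 4276, 3818, 7151 and 7112 CPM (-0.18 ± 0.05, adjusted p = 0.0115). Iapp did not pass (-0.06 ± 0.05, adjusted p = 0.54), nor did Scg2 (0.04 ± 0.07, adjusted p = 0.777). Of 16 regulators of the insulin genes 2 rose and 2 fell, counts too small to set apart from those all-gene shares, with a median of -0.07. Insm1, a zinc finger factor of endocrine cells, rose from 731.9, 486.6, 714.2 and 883 to 943.7, 564.3, 983 and 1079 CPM (0.31 ± 0.07, adjusted p = 0.00185), and Tcf3, an E-box factor named only for its place in this count, rose by 0.43 ± 0.14 (adjusted p = 0.0336). Nkx6-1, a homeodomain factor of beta cells, fell in 4 of 4 libraries, from 749.6, 580.9, 464 and 483.5 to 593.9, 474.8, 388.6 and 340.7 CPM (-0.38 ± 0.07, adjusted p = 0.000269). Pax6 did not pass (-0.11 ± 0.07, adjusted p = 0.375). Without WT A the falling genes numbered 6 of proinsulin maturation and 4 of the granule list, and 1 regulator rose and 1 fell, as also without mutant B. Without mutant A 1 regulator rose and 2 fell. Without a filter on low counts 19 maturation genes, 12 granule genes and 7 regulators fell, with a median over all genes of -0.23. In that setting 3234 genes were called in either direction.

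**Figure D4:**
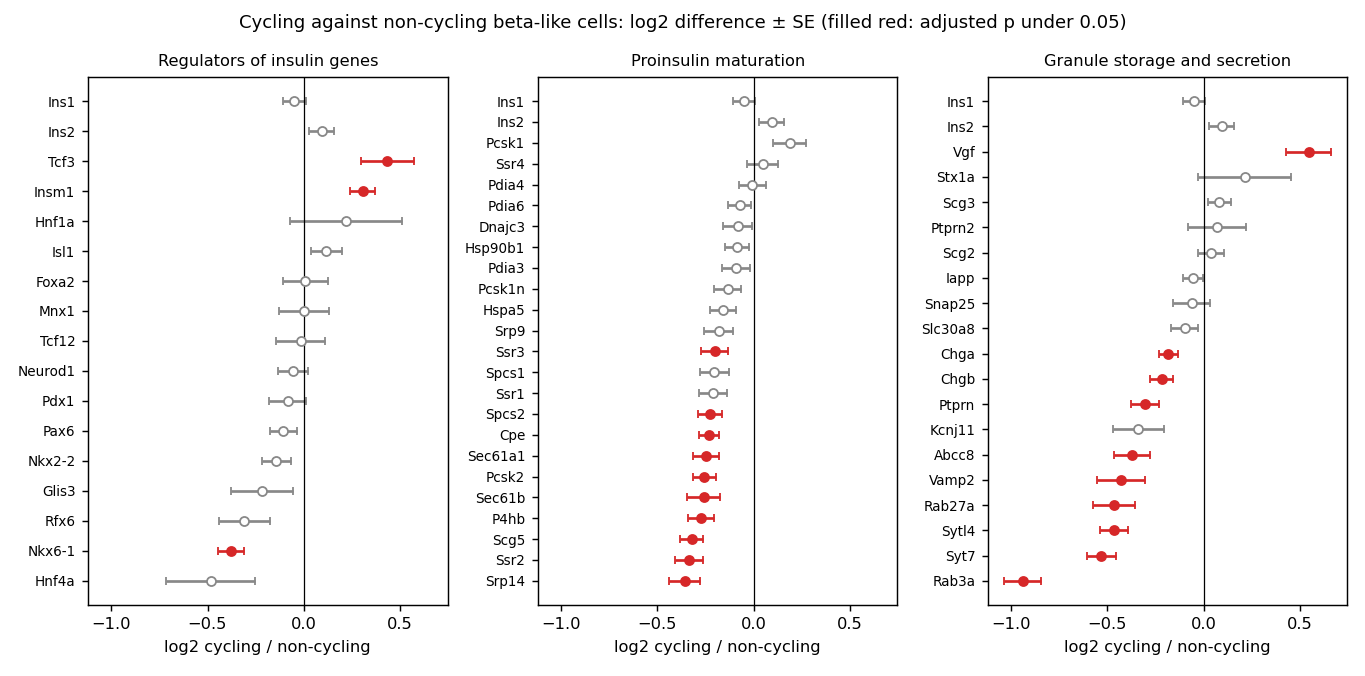
Log2 difference of cycling against non-cycling beta-like cells (horizontal axes, with SE) for Ins1, Ins2 and the tested genes of 3 lists (rows) apart from 1 regulator that is not plotted, where filled red points have an adjusted p under 0.05. Most of the red points in the maturation and granule panels lie at the left of 0, 10 and 9 of them, while Ins1 and Ins2 lie near 0.

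The same lists held no call between the labels, in a comparison where simulated 4-fold changes did not pass either. None of the 16 regulators, 22 maturation genes and 18 granule genes passed in beta-like cells (0 of 15986 genes passed), and none had an unadjusted p under 0.05. Their medians were -0.12, -0.10 and -0.09, beside -0.00 over all genes. Among the most abundant, Iapp was at 25088, 27423, 39395 and 31163 CPM, and Hspa5 at 3275, 2199, 4151 and 4173. The order of the libraries for these 2 genes was not that of insulin.

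Over 5 classes in 4 libraries the profiles of Ins1 and Ins2 were nearly the same. Across the 20 sums the Pearson correlation of log2(CPM + 1) was 0.994, and no other of 11980 genes came as close. The next were Klk1, a kallikrein (0.978 with Ins1, 0.959 with Ins2), and Cpne5, a copine (0.974 and 0.957). Tceal6 and Gm26878 were among the nearest 5 of both, Trp73os (0.941) of Ins1 and Npy (0.952) of Ins2. The points share libraries and depth, so these values are descriptions. Klk1 in beta-like cells stood at 913.5, 4219, 339.9 and 121.8 CPM, highest in mutant A and lowest in mutant B as insulin was. Npy, a neuropeptide, did not follow that order, at 495.3, 781, 573.9 and 466.3 CPM.

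Both genes were also counted outside beta-like cells. Alpha-like cells, the glucagon producers, held Ins1 at 7373, 1801, 718.9 and 256.5 CPM and Ins2 at 6454, 1185, 822.2 and 253.8. In WT A 10 of the 152 alpha-like cells held 11.4% insulin counts, and the other 142 had Ins1 at 2404 and Ins2 at 2156 CPM. Beta-like cells had 11.0 to 94.6 times more Ins1 and 10.8 to 102.9 times more Ins2, with WT A lowest. Without insulin-rich alpha-like cells, defined below by their insulin counts, these ranges were 33.8 to 94.6 and 32.4 to 112.6, again with WT A lowest. Against alpha-like cells, with the library as block, Ins1 was higher by 5.69 ± 0.48 (log2, SE; adjusted p = 2.42e-06) and Ins2 by 5.82 ± 0.51 (adjusted p = 3.14e-06) in edgeR's quasi-likelihood test, in 4 of 4 libraries, where 13.4% of 16085 genes passed as higher and 9.84% as lower (23.3% in all). Neither gene had been used to form the classes. After thinning every cell to 2000 counts 92.0%, 94.5%, 91.2% and 52.8% of alpha-like cells had an insulin count (99.3%, 96.2%, 99.3% and 84.6% before thinning, at median depths of 8212.5, 5791, 5468 and 4646 counts), with a median of 3, 4, 2 and 1 counts per cell, where beta-like cells had 297, 593, 158.5 and 66. Endothelial-like cells, which line vessels and should lack insulin, had 96.0%, 89.3%, 80.0% and 55.2% after the same thinning, at median depths of 4521.5, 6187, 6332.5 and 3562 before it. The exact 95% binomial intervals of both classes, for counting error only, overlapped in every library. In WT B they barely did, at 88.0% to 93.8% against 67.7% to 89.2%. Such overlap does not show that the classes are alike. Most cells of either class had a count in the first 3 libraries, so having a count does not mark a class, and levels are given next.

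**Figure D5:**
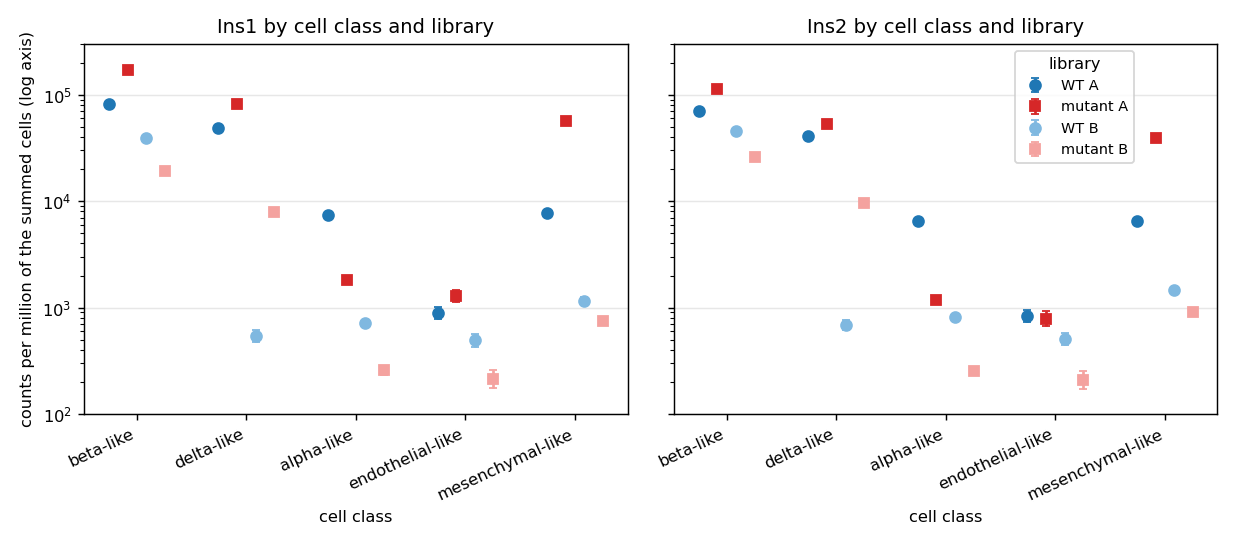
Ins1 (left) and Ins2 (right) in CPM of the summed cells (log axis) by cell class, 1 point per library, with 95% Poisson intervals that are mostly smaller than the points. Beta-like cells are highest in each library, from 19300 to 170451 CPM for Ins1, and delta-like cells of WT B stand far below those of the other libraries.

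The background level was read from non-endocrine cells. Cells whose insulin share reached 0.5 times the beta-like median of their library were called insulin-rich and set aside, 10 of 246, 26 of 154, 19 of 417 and 24 of 893. The remaining cells held 0.281%, 0.810%, 0.141% and 0.0628% insulin counts, which is 2.57%, 3.77%, 3.23% and 2.59% of the share over all cells of the library. The median cell held 0.206%, 0.221%, 0.125% and 0.0426%, so the summed value of mutant A was far above its median cell, which was near that of WT A. Beta-like cells lay 53.8, 35.1, 60.7 and 72.3 times above the summed background. The limit for insulin-rich was highest in mutant A, whose beta-like median was 29.5%, beside 14.8%, 7.90% and 3.29% in WT A, WT B and mutant B. Cells with more insulin could thus stay in the background of mutant A, and these ratios depend on the limit. Alpha-like cells without insulin-rich ones held 0.456%, 0.299%, 0.140% and 0.0476%, above the summed background in WT A and below it in the other libraries. By the median cell they held 0.149%, 0.192%, 0.127% and 0.0386%, below the background's median cell in WT A, mutant A and mutant B and slightly above it in WT B. The direction in WT A thus differed between the sum and the median cell, and 7 alpha-like cells of WT A lay near the limit for insulin-rich. Insulin-rich alpha-like cells numbered 10, 0, 3 and 2.

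Ins1's part of this background was below that of the beta-like cells in WT A and mutant A and above it in mutant B. It was 50.01% against 53.8% in WT A, 57.8% against 59.9% in mutant A, 45.2% against 46.3% in WT B and 49.1% against 42.5% in mutant B. The exact 95% binomial interval of the background, for counting error only, was 48.4% to 51.7% in WT A, 56.5% to 59.2% in mutant A and 46.8% to 51.5% in mutant B, each without the beta-like value. In WT B it was 43.3% to 47.1% and held that value. Alpha-like cells gave 53.3%, 60.3%, 46.6% and 50.3%, below the beta-like value in WT A and above it in the other libraries. Their exact 95% binomial interval left out the beta-like value only in mutant B, at 47.0% to 53.5%. In mutant A alpha-like and endothelial-like cells thus did not share the direction of the background, though the intervals of both held the beta-like value. Insulin-poor mesenchymal-like cells of mutant A gave 54.9%, below that value. Over 4 libraries the log2 ratio in insulin-poor non-endocrine cells differed from that in beta-like cells by -0.00 ± 0.27 (SD, n = 4; two-sided exact sign-flip permutation p = 1.0), and the smallest adjusted p among 9 such comparisons was 0.938.

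Delta-like cells, the somatostatin producers, also held insulin counts. Of the 4 other classes tested they had the highest share in WT A, mutant A and mutant B. Their insulin share was 8.90%, 13.6%, 0.123% and 1.75%, and 81 of 159, 46 of 99, 0 of 68 and 73 of 197 were insulin-rich. In WT B the count of 0 allows a share of up to 5.28% (exact 95% binomial interval). In insulin-rich delta-like cells somatostatin (Sst) made up 4.23%, 4.28% and 2.94% of counts in WT A, mutant A and mutant B, beside 9.58%, 9.42% and 6.59% in the insulin-poor ones. Their median depth was 16028, 9260.5 and 8313 counts, beside 6893, 5089 and 4956.5. Whether they are doublets was not tested beyond the Scrublet calls, which had removed 40 of 6566 cells (0.609%). Their part of Ins1, 54.1%, 60.8% and 44.1%, stood beside 53.8%, 59.9% and 42.5% in beta-like cells of the same libraries.

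Between the labels no class outside beta-like passed for either gene, with 0 genes called in alpha-like (of 11194), delta-like (of 9749), endothelial-like (of 6091) and mesenchymal-like cells (of 8303), each 0% (edgeR's quasi-likelihood test; unadjusted p under 0.05 for 10, 10, 33 and 16 genes; DESeq2 called 0 in each). In alpha-like cells Ins1 differed by -1.98 ± 0.96 and Ins2 by -2.34 ± 0.88 (adjusted p = 1.0 for both). Leaving out mutant A gave -3.82 and -3.68 there, past the threshold (adjusted p = 0.000358 and 0.000499), and leaving out WT A gave 0.30 and -0.40. Without insulin-rich alpha-like cells the differences were -0.60 ± 0.80 and -1.05 ± 0.72 (adjusted p = 1.0 for both). In delta-like cells the differences were 0.98 ± 1.35 and 0.69 ± 1.23 (0.31 and 0.13 without insulin-rich cells), without WT A 6.42 and 5.56 (adjusted p = 6.21e-10 and 2.83e-07), without mutant A -1.65 and -1.13, and without WT B -0.06 and -0.35. In mesenchymal-like cells they were 2.77 ± 1.72 and 2.42 ± 1.52, without mutant B 3.71 and 3.34 (adjusted p = 0.000115 and 0.000419), without mutant A -2.48 and -2.03. In endothelial-like cells they were 0.14 ± 0.74 and -0.42 ± 0.62, without mutant A -1.63 for both genes, without WT B -0.25 and -0.74, and without mutant B 0.89 and 0.22. Where a library is left out, the lone library of its label is assumed to vary like the other label. The mesenchymal-like cells of mutant A held 13 insulin-rich cells of 67, and its summed Ins1 stood at 56220 CPM beside 7737, 1163 and 748.2 in WT A, WT B and mutant B. Without insulin-rich mesenchymal-like cells the differences were 1.60 ± 1.13 and 1.29 ± 1.02 (adjusted p = 1.0 for both, edgeR).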

How the data were processed

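Single islet cells were captured by inDrop, amplified by CEL-Seq linear amplification and sequenced on a NextSeq500, per the labels' protocols. The authors deposited 1 table of raw counts per gene and barcode for each of 4 libraries, and the builds GRCh38 and GRCm38 come from the submitters' processing notes. Aligner, annotation, molecular barcode collapsing, use of strand and the treatment of reads matching both insulin genes are not stated in the sources.

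Barcodes with at least 500 counts, 250 genes and at most 25% mitochondrial counts were kept, and Scrublet calls were removed (40 of 6566, few for this many cells). Cells were clustered in scanpy 1.11.5 (2000 variable genes, 30 components, 15 neighbours, resolution 1, seed 1) without Ins1, Ins2 and 679 genes that followed the cycling markers (r above 0.1), the latter chosen after a first clustering. Classes were named from marker lists. Counts were summed per library and class and tested with edgeR 4.0.16 (quasi-likelihood, TMM), with DESeq2 1.42.0 as an alternative, in R 4.3.3. The edgeR code was tested on simulated data. Single values were tested by exact permutation. Low-count genes were filtered. p-values measure only the spread between these libraries. The members and lists were chosen with earlier results of these data known. Named genes were both members, the 3 most abundant of each list and the 5 most like each member. Cell-level alternatives, scalings, filters and libraries left out were tried, and those on cycling, shared barcodes and insulin-rich cells were chosen after seeing the data. 1 regulator among those that fell in cycling cells is not reported here by name.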

Additional observations from a re-analysis of the deposited data

Results flagged for a closer look

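The difference between the labels went opposite ways in the 2 title numbers. The insulin share of beta-like counts differed, mutant minus WT, by 13.4 percentage points within A and by -4.02 within B. The log2 ratio of Ins1 to Ins2 differed by 0.36 within A and by -0.22 within B. Whether the numbers differ was not tested, since each holds 1 library per label. The insulin share of cycling minus that of non-cycling beta-like cells was -0.62 percentage points in WT A and -2.55 in mutant A, and 0.0568 in WT B and 1.35 in mutant B, again of opposite direction between the numbers, and this difference was not tested either. By the median cell WT B was lower in cycling cells, with 7.61% beside 7.91% in non-cycling cells.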

How the results depend on the processing

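With 2 libraries per label, each insulin difference between labels rests on single libraries, and depth limits shares in shallow cells. Of 119 settings that left out a library or added a block, 82 kept the result and 20 reversed it. Of 89 other settings, 85 kept it. A kept result had the same direction and side of the threshold, or a number of genes called within 1.5 times. Without a low-count filter 1 gene was called between labels in beta-like cells, and in cycling against non-cycling cells Ins1 was at -0.22 (adjusted p = 2.39e-16 by edgeR) and Ins2 at -0.0787 (adjusted p = 0.0305), beside an all-gene median of -0.23. DESeq2 called 1378 genes there. Averaging over cells could not be applied to the edgeR fits and was not run.

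Over genes in beta-like sums the deviations of same-numbered libraries correlated with r = 0.05, under the 0.1 asked for a pairing. Same-numbered libraries did share clusters (122, 109, 3 and 8 cells in 1 alpha-like cluster), so whether the numbers pair the libraries is not settled. With the replicate block Ins1 was at 0.07 and Ins2 at 0.00433 in beta-like cells. For alpha-like cells the block gave -1.77 and -2.08, for delta-like 2.32 and 2.11. Endothelial-like cells gave -0.28 and -0.64, and mesenchymal-like 1.18 and 1.02. Each of these fits called 0 genes.

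Leaving out 1 library at a time gave, for Ins1 and Ins2 between labels, -1.58 to 1.43 and -1.06 to 0.93 in beta-like cells (0 to 1 genes called), -3.82 to 0.30 and -3.68 to -0.40 in alpha-like (0 to 8), -1.65 to 6.42 and -1.13 to 5.56 in delta-like (0 to 14), -1.63 to 0.89 and -1.63 to 0.22 in endothelial-like (0 to 7), and -2.48 to 4.58 and -2.03 to 3.74 in mesenchymal-like cells (0 to 242, the most without mutant B). Cycling against non-cycling gave -0.16 to 0.00973 and -0.0356 to 0.18 (1577 to 2007 genes), and beta-like against alpha-like 5.23 to 6.30 and 5.37 to 6.47 (2749 to 3141). The share between labels ran from -7.29 to 16.6 percentage points, the log2 ratio from -0.44 to 0.58, the depth difference from -3.74 to -0.65, the cycling share from -1.04 to 0.26 and the cycling log2 ratio from -0.17 to -0.12.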

Other observations

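Barcodes that missed the filters, 82, 176, 78 and 46 per library, held 5.58%, 11.0%, 1.21% and 1.31% insulin counts. An unnamed cluster of 342 cells, whose best marker list was that of beta cells, held 13.6%, 18.6%, 8.51% and 4.81%. Its median counts per cell were low in the first 3 libraries, at 1138.5, 772 and 914, and 3515 in mutant B. Another unnamed cluster of 176 cells, led by Ppy and with Pyy and Ghrl among its leading genes, held 3.27%, 8.54%, 0.180% and 0.674%.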
